A study of Mus musculus with 6 samples.

Results

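Inflammasomes are protein platforms that form in the cytosol when a sensor recognises a microbial product or a disturbance of the cell. The sensor recruits the adaptor ASC and activates inflammatory caspases, which cut the precursors of interleukin-1β and interleukin-18 and the pore protein gasdermin D. Neutrophils carry this machinery and can release interleukin-1β through it. The genes described here are the sensors Nlrp3, Nlrc4, Nlrp1b, Aim2 and Mefv, the related receptor Nlrp12, the Nlrp3 partner Nek7, the ASC gene Pycard, and the inflammatory caspase genes Casp1 and Casp4. They were chosen by symbol, as members of this pathway, with earlier results of these data known. All 10 were found among the 45777 genes of the count table.

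RNA was sequenced from neutrophils of wild-type C57BL/6 mice. The cells came from bone marrow on a Percoll density gradient, and spent 24 h with either prostaglandin E2 (PGE2) at 10 µM or DMSO alone, the vehicle. PGE2 is a lipid mediator that signals through the E prostanoid receptors. Each group held 3 libraries of biological replicates. The labels name no priming or triggering agent, and do not give the age or sex of the mice or say whether animals were pooled.

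Library totals ran from 42091346 to 56238941 counts, and the 10 genes together took 0.0685 to 0.0749% of them. The neutrophil markers of the marker list (S100a8, S100a9, Ly6g and 7 others) summed to 79330 to 84470 CPM in vehicle and 72460 to 87990 CPM with PGE2, led by S100a9, and 5 of the 10 were lower. CPM is the count scaled to library size, here after scaling the libraries with edgeR's TMM method. Markers of other cells were present and some moved with treatment. The 12 monocyte and macrophage markers summed to 1035 to 1353 CPM in vehicle and 667 to 1019 CPM with PGE2, with 2 of 12 lower. None of them was at 0 in every library, although Mertk, C1qa, C1qb and C1qc averaged under 1 CPM. Mertk was at 0 in PGE2 replicate 2 and C1qc in vehicle replicate 1. The 7 B cell markers summed to 389 to 518 and 576 to 830 CPM, with 3 higher, and the 6 eosinophil markers to 142 to 277 and 67.5 to 106 CPM, with 5 lower. The most abundant of these markers were Ly6c2 for monocytes (601 ± 148 CPM in vehicle and 397 ± 124 with PGE2), Cd79a for B cells (117 ± 11.5 and 204 ± 33.9) and Prg2 for eosinophils (118 ± 46.2 and 55.4 ± 14.3). Mpo, the leading marker of granulocyte precursors, stood at 268 ± 33.8 and 135 ± 15.1 CPM, and 2 of the 7 precursor and cycling markers were lower. Siglech (dendritic cells), Cd3d (T cells), Mcpt8 (basophils) and Itga2b (platelets) led their lists at group means of 8.12 to 23.7 CPM, with 1 dendritic cell marker lower and no other call in those lists. Hemoglobin transcripts, led by Hbb-bs, took 0.413 to 1.86% of counts in vehicle and 1.57 to 4.87% with PGE2. The part of these other cells in the results below was not tested, and in bulk RNA fewer cells of a type and less RNA per cell cannot be told apart.

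With PGE2, Mefv and Pycard rose, Aim2, Nlrp1b, Nek7 and Nlrp12 fell, and Nlrp3, Nlrc4, Casp1 and Casp4 did not pass the test. Calls rest on edgeR's quasi-likelihood test over all 15947 genes tested, with a Benjamini-Hochberg adjusted p under 0.05. All 10 genes had enough counts to be tested. That made 6 of 10 genes called, 2 higher and 4 lower, where 24.4% of all tested genes were called, 10.1% higher and 14.3% lower. Since the 10 genes were chosen with earlier results known, this comparison is a description only. The 6 called genes were also those whose PGE2 and vehicle libraries did not overlap in CPM, which held for 42.3% of all tested genes. The median log2 fold change of the 10 genes was -0.10, beside 0.04 over all tested genes. Mefv, Aim2 and Nek7 kept their calls without any single library. Pycard and Nlrp1b each lost theirs without 5 of the 6 libraries in turn, and Nlrp12 without 3 of them.

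**Figure D1:**
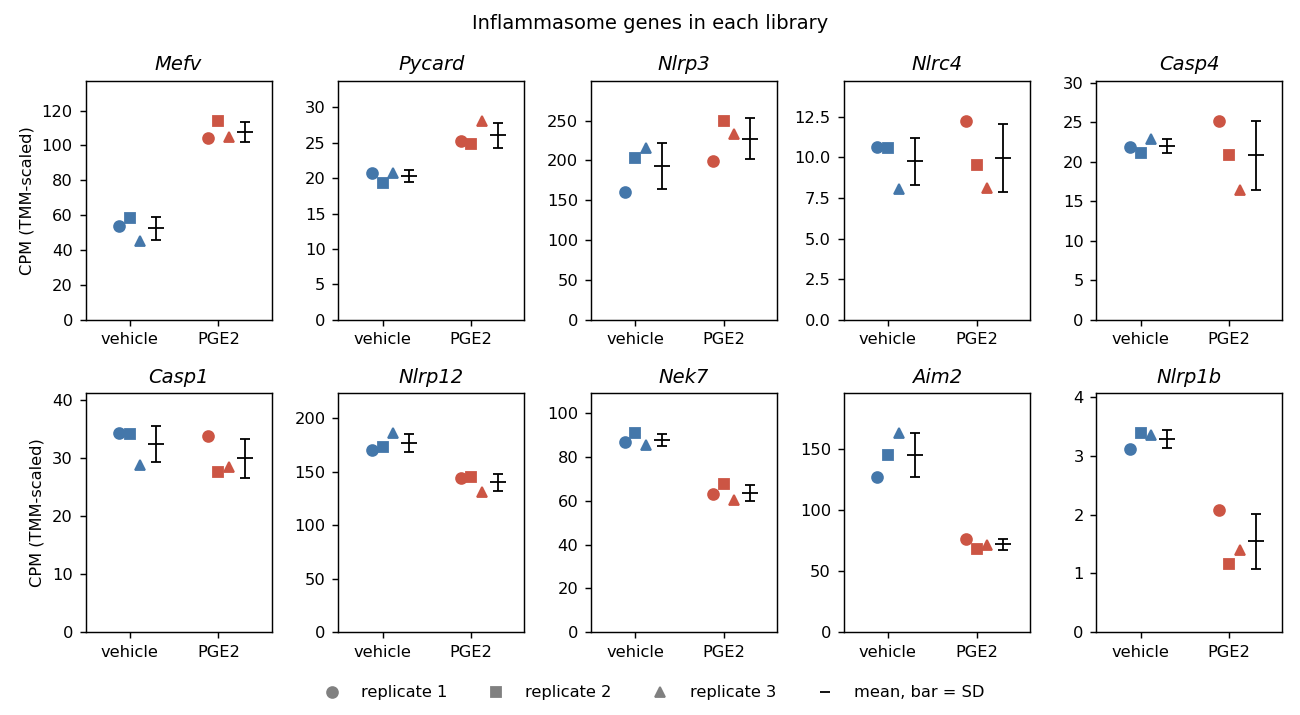
CPM of each gene in the 3 vehicle (blue) and 3 PGE2 (red) libraries, with the marker shape giving the replicate number and the black bar the mean and SD; each panel has its own axis from 0. The groups are apart for Mefv, Pycard, Nlrp12, Nek7, Aim2 and Nlrp1b and overlap for Nlrp3, Nlrc4, Casp4 and Casp1.

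The promoters of the genes that moved furthest, Aim2, Nlrp1b and Mefv, are shown, since the first pair fell and Mefv rose by similar amounts. Each runs from 250 bases before to 50 bases after a start site listed by RefSeq (GRCm38.p6), 5′ to 3′ on the gene's own strand. The listed start sites of Aim2 and Nlrp1b lie well inside the deposited gene spans. Those spans have their 5′ ends at 173349547 for Aim2 and 71242514 for Nlrp1b, and the bases there were not searched. Capitals mark GAGGAA, the core letters bound by PU.1, a master transcription factor of myeloid cells.
Aim2, plus strand, chr1:173420354-173420653: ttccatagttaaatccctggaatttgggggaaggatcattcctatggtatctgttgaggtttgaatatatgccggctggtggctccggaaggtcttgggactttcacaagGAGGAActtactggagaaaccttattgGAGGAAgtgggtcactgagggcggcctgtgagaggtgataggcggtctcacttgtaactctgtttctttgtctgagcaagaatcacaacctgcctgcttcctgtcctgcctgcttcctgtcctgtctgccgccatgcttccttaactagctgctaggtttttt
Nlrp1b, minus strand, chr11:71230684-71230983: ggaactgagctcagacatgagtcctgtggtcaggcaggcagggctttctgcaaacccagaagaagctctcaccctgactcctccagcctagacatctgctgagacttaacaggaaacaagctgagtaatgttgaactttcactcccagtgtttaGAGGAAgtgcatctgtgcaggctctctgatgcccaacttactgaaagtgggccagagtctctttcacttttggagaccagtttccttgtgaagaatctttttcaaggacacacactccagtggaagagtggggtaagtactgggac
Mefv, minus strand, chr16:3718075-3718374: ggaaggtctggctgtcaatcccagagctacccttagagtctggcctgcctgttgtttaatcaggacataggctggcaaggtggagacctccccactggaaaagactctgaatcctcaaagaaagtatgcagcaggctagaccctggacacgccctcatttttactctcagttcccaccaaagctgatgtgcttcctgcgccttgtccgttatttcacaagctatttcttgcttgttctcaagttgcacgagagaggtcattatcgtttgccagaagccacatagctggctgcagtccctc

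Aim2 held GAGGAA at -140 and -113 and Nlrp1b at -96 from these listed start sites. These 300 bases of Mefv held none of the motifs searched. The motifs were GAGGAA, the core TGACG of the cAMP response element and its palindrome TGACGTCA, the core GAAANNGAA of the interferon-stimulated response element, and the kappaB consensus, each on both strands. RefSeq lists a second Nlrp1b promoter (chr11:71201407-71201706), not printed, which held none of them either. Of 13 promoters of the 10 genes, 5 held GAGGAA (1 each of Aim2, Pycard, Casp1, Nlrp3 and Nlrp1b). Among the other called genes, Pycard, which rose, thus held it, and Nek7 and Nlrp12, which fell, did not. GAGGAA therefore did not follow the direction of change. TGACG was in 3 promoters and the kappaB consensus in 3, in each case both of Casp4, which overlap each other, and 1 of Nlrp3, and GAAANNGAA was in 0. Of all 32851 promoters of this length, 28.3% held GAGGAA, 20.8% TGACG, 1.8% TGACGTCA, 8.6% GAAANNGAA and 4.5% the kappaB consensus. A match describes the letters only.

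Among the sensors, Mefv encodes pyrin, which responds when bacterial toxins inactivate RhoA (chromosome 16, 3706974 to 3718211, mm10). Mefv stood at 53.6, 58.4 and 45.4 CPM in vehicle replicates 1, 2 and 3 and at 104, 114 and 105 CPM in PGE2 replicates 1, 2 and 3. Every PGE2 library lay well above every vehicle library. Group means were 52.5 ± 6.60 and 107.7 ± 5.58 CPM (± SD, with n = 3 libraries each). The change was 1.04 ± 0.11 on the log2 scale (± SE; edgeR adjusted p = 0.000623), or 2.05-fold.

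Aim2 encodes the sensor of cytosolic double-stranded DNA (chromosome 1, 173349547 to 173466040). Its vehicle libraries held 127, 145 and 163 CPM and its PGE2 libraries 76.3, 67.8 and 71.0 CPM. The lowest vehicle library was far above the highest PGE2 library, and the vehicle libraries were the more spread. Group means were 145 ± 17.7 and 71.7 ± 4.29 CPM, and the log2 fold change was -1.01 ± 0.11 (edgeR adjusted p = 0.000639). Cadm3 overlaps Aim2 on the other strand and had at most 75 counts, where Aim2 had 3548 to 8411.

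Nlrp1b encodes a sensor of the NLRP1 type (chromosome 11, 71152574 to 71242514). It was the least abundant of the 10, with 143, 136 and 174 counts in vehicle and 105, 61 and 85 with PGE2. On the CPM scale these were 3.12, 3.39 and 3.36 against 2.08, 1.17 and 1.40, so the vehicle libraries were close together and PGE2 replicate 1 lay nearest to them. The log2 fold change was -1.09 ± 0.26 (edgeR adjusted p = 0.0190). The adjusted p became 0.0517 on leaving out PGE2 replicate 2 and 0.0627 on leaving out PGE2 replicate 3. Leaving out vehicle replicate 1, 2 or 3 gave 0.0507, 0.0633 or 0.0587. On log2(TPM + 1) the change was -0.49 and the limma adjusted p 0.0789, and on log2(TPM + 0.1) they were -1.07 and 0.0923, for a gene at about 1 TPM (adjusted p 0.00269 to 0.0923 over the alternatives). Nlrp1b met the filter of 1 TPM in 3 libraries only through vehicle, where it was high. It held 1.091, 1.012 and 1.004 TPM in vehicle and 0.649, 0.293 and 0.438 TPM with PGE2, so these TPM fits are no separate support for its fall. Nlrp1b lies in a cluster of near copies and overlaps Nlrp1c-ps on the same strand, which had at most 13 counts. How the counting divided reads among them is not stated in any source used here.

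Nlrp3 encodes the sensor of ion flux and membrane damage (chromosome 11, 59541569 to 59566955). It stood at 161, 203 and 216 CPM in vehicle and 199, 250 and 233 CPM with PGE2, and the groups overlapped. The log2 fold change was 0.24 ± 0.13 (95% interval -0.07 to 0.54) and did not pass (edgeR adjusted p = 0.238). Within the same-numbered pairs the PGE2 library was above the vehicle library by 0.31, 0.30 and 0.12 on the log2 scale. With the replicate number as a block the change was 0.24 ± 0.07 and passed (edgeR adjusted p = 0.0347, 0.0347 to 0.493 over the alternatives). That fit called 35.5% of all tested genes.

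Nek7 encodes the kinase that binds NLRP3 and is needed for its assembly (chromosome 1, 138483837 to 138619757). It held 86.9, 91.0 and 85.6 CPM in vehicle and 63.1, 67.6 and 60.4 CPM with PGE2. Both groups were tight and far apart. The log2 fold change was -0.46 ± 0.08 (edgeR adjusted p = 0.00484), and the same-numbered differences of -0.46, -0.43 and -0.50 were close to each other.

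Nlrc4 encodes the adaptor-like sensor that NAIP receptors activate (chromosome 17, 74426255 to 74459144). At 10.6, 10.6 and 8.06 CPM in vehicle and 12.3, 9.54 and 8.12 CPM with PGE2, its groups overlapped, with PGE2 replicate 1 above every vehicle library. Its log2 fold change of 0.03 had a 95% interval of -0.40 to 0.47, and the sign turned without PGE2 replicate 1 (-0.14), without vehicle replicate 3 (-0.09) and on log2(TPM + 1) (-0.11).

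Nlrp12 encodes a receptor of the same family that is known as a brake on inflammatory signalling and as a neutrophil gene (chromosome 7, 3218643 to 3249771). Its values were 170, 173 and 186 CPM in vehicle and 144, 146 and 131 CPM with PGE2, without overlap. The log2 fold change was -0.33 ± 0.08 (edgeR adjusted p = 0.0205). The adjusted p became 0.0680 on leaving out PGE2 replicate 3, 0.0644 or 0.0768 on leaving out vehicle replicate 2 or 3, and 0.0540 with library totals as the only scaling (0.00147 to 0.0768 over the alternatives). Small RNA genes and D7Ertd143e overlap Nlrp12, with at most 35 counts each.

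Pycard encodes ASC, the adaptor that links pyrin-domain sensors to caspase-1 (chromosome 7, 127991373 to 127993867). It rose from 20.8, 19.3 and 20.8 CPM in vehicle to 25.3, 24.8 and 28.1 CPM with PGE2. The vehicle libraries were nearly equal and all lay below the PGE2 libraries. The log2 fold change was 0.36 ± 0.10 (edgeR adjusted p = 0.0315). The adjusted p became 0.0552 or 0.0869 on leaving out PGE2 replicate 2 or 3, and 0.0606, 0.119 or 0.0748 on leaving out vehicle replicate 1, 2 or 3. It was 0.0548 with no filter on low counts and 0.281 on log2(TPM + 1), where the groups overlapped and the change was 0.24 (0.0125 to 0.281 over the alternatives).

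The inflammatory caspases sit side by side on chromosome 9. Casp1, whose product cuts interleukin-1β and gasdermin D (5298517 to 5307281), held 34.3, 34.1 and 28.9 CPM in vehicle and 33.8, 27.6 and 28.4 CPM with PGE2. Casp4, whose product senses cytosolic lipopolysaccharide (5308823 to 5336791), held 21.9, 21.1 and 22.9 CPM in vehicle and 25.2, 20.8 and 16.4 CPM with PGE2. Both overlapped between groups, with log2 fold changes of -0.11 ± 0.12 (95% interval -0.39 to 0.16) for Casp1 and -0.08 ± 0.16 (-0.44 to 0.28) for Casp4, and edgeR adjusted p of 0.531 and 0.761. Casp4 was at 0.07 without PGE2 replicate 3 and at 0.01 with library totals as the only scaling. PGE2 replicates were more spread for Casp4 (coefficient of variation 21.1%) than vehicle replicates (4.12%).

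**Figure D2:**
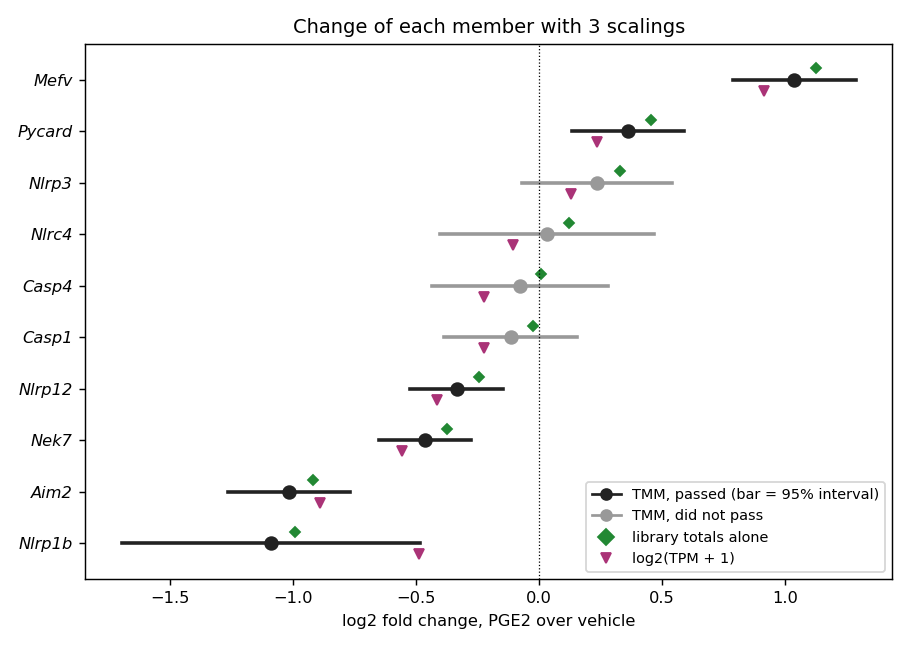
Log2 fold change of each gene, PGE2 over vehicle, from edgeR with TMM scaling (circles, bars give 95% intervals, black passed and grey did not), with libraries scaled by their totals alone (green diamonds) and from limma on log2(TPM + 1) (purple triangles). Mefv at the top and Aim2 and Nlrp1b at the bottom lie furthest from 0; Nlrc4 and Casp4 change sign between scalings.

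Ratios of counts within a library do not depend on how libraries are scaled, and are given as a description, since the pairs were chosen after the values were seen. The ratio of Mefv to Aim2 counts was 0.422, 0.404 and 0.279 in vehicle and 1.37, 1.68 and 1.47 with PGE2. Aim2 reads thus outnumbered Mefv reads in each vehicle library and the reverse held in each PGE2 library. The ratio of Nlrp3 to Nek7 counts was 1.85, 2.23 and 2.52 in vehicle and 3.15, 3.69 and 3.87 with PGE2. The ratio of Casp1 to Casp4 counts was 1.56, 1.62 and 1.26 against 1.34, 1.32 and 1.73, and overlapped.

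Per transcript length, Nlrp3 was the most abundant of the 10 in both groups, at 84.9 ± 8.79 TPM in vehicle and 93.0 ± 7.72 TPM with PGE2. TPM is the authors' own value, scaled to transcript length and library size. In vehicle it was followed by Aim2 (69.2 ± 4.38 TPM) and Nlrp12 (64.1 ± 5.17 TPM), whose ranges overlapped. Casp1 (37.6 TPM) and Nek7 (35.8 TPM) came next and overlapped, then Mefv (28.8 TPM) and Casp4 (27.8 TPM), which overlapped too, and Pycard at 16.7 TPM. Nlrc4 at 4.33 TPM and Nlrp1b at 1.04 TPM were well below the rest. With PGE2, Mefv took the second place at 54.9 ± 2.08 TPM, where its range overlapped that of Nlrp12 (47.9 ± 4.50 TPM), and Aim2 came after Nlrp12 at 37.0 ± 3.86 TPM, overlapping Casp1 (32.3 TPM). Nek7 (24.0 TPM), Casp4 (23.9 TPM) and Pycard (19.9 TPM) followed, with Nek7 overlapping Casp4 and Casp4 overlapping Pycard. The 10 genes summed to 376, 360 and 375 TPM in vehicle and 353, 313 and 346 TPM with PGE2. Their share of counts overlapped between groups, at 0.0685, 0.0723 and 0.0749% in vehicle and 0.0716, 0.0709 and 0.0737% with PGE2. Every PGE2 library thus had a lower TPM sum than every vehicle library, while the share of counts did not separate the groups. On log2(TPM + 1) the log2 fold changes over all genes tested shifted by a median of -0.11 from the main fit. Whether the 10 genes fell as a set was not tested.

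**Figure D3:**
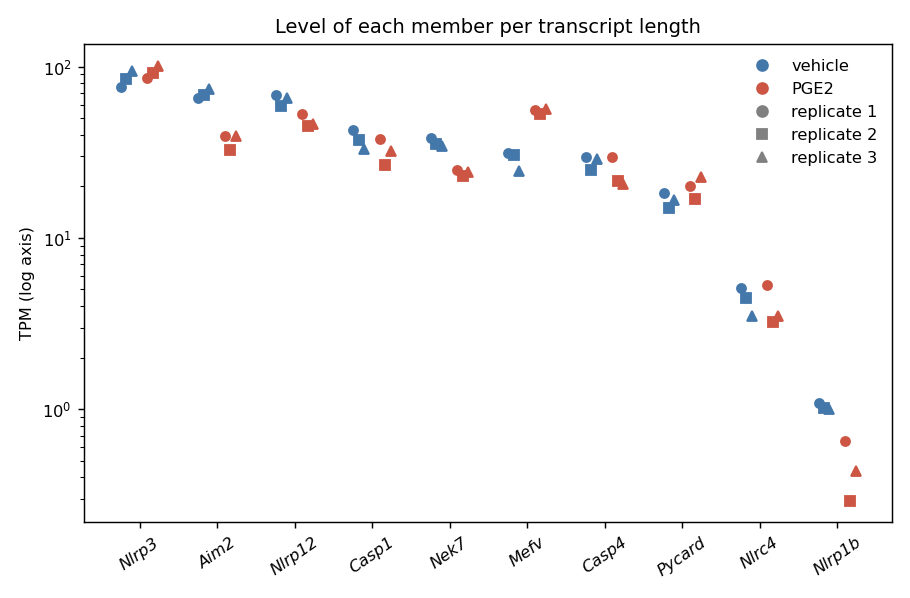
TPM of each gene in each library on a log axis, genes in the order of their vehicle mean, vehicle in blue and PGE2 in red, with the marker shape giving the replicate number. Nlrp3 leads in both groups, Mefv moves up and Aim2 down with PGE2, and Nlrp1b lies lowest.

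The other genes of the pathway were described by role, from lists of 77 genes, 74 of them in the table and 70 tested. With PGE2, 5 were higher, 20 lower and 45 did not pass, with a median log2 fold change of -0.16. That made 35.7% called, beside 24.4% of all tested genes, for lists also chosen with earlier results known. With the replicate block 10 were higher and 29 lower, in a fit that called 35.5% of all tested genes. These shares, 24.4% and 35.5% with the block, are the background for each count by role that follows, and lists of a few genes with a share near them show nothing particular to the list.

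Of 7 caspase substrate and pore genes tested, 3 were higher, 3 lower and 1 did not pass. Il1b, the best known substrate cytokine of caspase-1, held 415, 654 and 738 CPM in vehicle and 1812, 2599 and 2376 CPM with PGE2, without overlap. Il18, the other classical substrate, held 6.63, 8.70 and 5.59 CPM in vehicle and 14.6, 17.1 and 12.4 CPM with PGE2, a log2 fold change of 1.08 ± 0.20 (edgeR adjusted p = 0.00566). Il1a was listed at 0, 0.199 and 0.406 CPM in vehicle and 2.37, 2.93 and 3.39 CPM with PGE2. It met the filter on low counts only through PGE2, where it was high. The call of Il1a is therefore no separate support for the counts of higher genes, here or over all pathway lists. The log2 fold change of Il1a, 3.80 ± 0.76, ranged from 1.51 to 4.89 over the alternatives. With vehicle values this near to 0, the size of the Il1a rise is poorly determined. Gsdme, a gasdermin gene whose product is cut mainly by caspase-3, fell from 156 ± 2.46 to 62.0 ± 11.0 CPM. Il16, which encodes a cytokine precursor cut by caspase-3, fell by 0.78 ± 0.09 on the log2 scale. Gsdmd, which encodes the pore protein that caspase-1 and the Casp4 product cut and was named after its values were seen, was at 151, 172 and 174 CPM in vehicle and 138, 134 and 134 CPM with PGE2 (log2 fold change -0.30 ± 0.08, edgeR adjusted p = 0.0353). The adjusted p of Gsdmd became 0.0620, 0.0946 or 0.0944 on leaving out PGE2 replicate 1, 2 or 3, 0.132 or 0.118 on leaving out vehicle replicate 2 or 3, and 0.129 with library totals as the only scaling.

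Antagonists of the released cytokines and inhibitors of the caspases also went both ways. Of 6 genes, 1 was higher, 1 lower and 4 did not pass, and with the replicate block 3 were higher and 2 lower. Il1r2, the decoy receptor of interleukin-1, held 113, 129 and 186 CPM in vehicle and 467, 642 and 598 CPM with PGE2. Il18bp, which encodes the soluble trap of interleukin-18, went the other way, from 34.6, 32.7 and 29.8 CPM to 17.7, 17.8 and 16.3 CPM (log2 fold change -0.90 ± 0.10, edgeR adjusted p = 0.000759). Serpinb1a, an inhibitor of neutrophil serine proteases and of caspase activation, was at -0.82 ± 0.27 and did not pass (edgeR adjusted p = 0.0625). It passed with the block (0.000148), without PGE2 replicate 1 (0.0162) and with DESeq2 (0.00648). From limma the adjusted p of Serpinb1a was 0.0449 on log2(TPM + 1) and 0.0498 on log2(TPM + 0.1).

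NAIP receptors bind bacterial proteins and then activate NLRC4. Of 4 tested NAIP genes 1 fell (25%, beside 24.4% of all tested genes), and with the block, which called 35.5% of all tested genes, 3 did. Naip2, whose product binds the rod protein of bacterial secretion systems, held 93.1, 84.7 and 73.4 CPM in vehicle and 60.0, 56.0 and 53.0 CPM with PGE2 (log2 fold change -0.57 ± 0.11, edgeR adjusted p = 0.00633). Naip5 and Naip6, whose products bind flagellin, were at -0.49 ± 0.15 and -0.55 ± 0.20 and did not pass (edgeR adjusted p = 0.0530 and 0.0860). They passed with the block (0.0121 and 0.0123), without vehicle replicate 3 (0.0228 and 0.0408) and with DESeq2 (0.0186 and 0.0440). Naip5 also passed with the filter of 50 counts (edgeR adjusted p = 0.0469). These genes are close paralogs, so their counts can share reads.

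Among genes that act on Nlrp3, 4 of 13 fell and 0 rose (30.8% called, beside 24.4% of all tested genes). With the block 5 fell and 1 rose, where 35.5% of all tested genes were called. Panx1, a channel gene named after its values were seen, was at 0.49 ± 0.17 and did not pass (edgeR adjusted p = 0.0638), but did with the block (0.0362), without PGE2 replicate 1 (0.0358) and with library totals (0.0491). Hk1, which encodes a hexokinase, fell from 160 ± 1.31 to 101 ± 7.18 CPM. Gsk3b and Mark4, both kinase genes, had log2 fold changes of -0.63 ± 0.10 and -0.50 ± 0.10 (edgeR adjusted p = 0.00338 and 0.0100).

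Among genes that act on pyrin, 2 of 7 fell and 0 rose (28.6% called, beside 24.4% of all tested genes). With the block 2 fell and 1 rose, where 35.5% of all tested genes were called. Pstpip1, which encodes a pyrin-binding protein, went from 296 ± 29.8 to 195 ± 11.8 CPM (log2 fold change -0.61 ± 0.10). Ywhae, a 14-3-3 gene, was at 0.26 ± 0.08 and did not pass (edgeR adjusted p = 0.0551), but did with the block (0.0275), with library totals alone (0.0298), with hemoglobin genes left out (0.0420), with DESeq2 (0.0298) and with the filter of 50 counts (0.0378).

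Of the dipeptidyl peptidase genes that hold back NLRP1, Dpp8 fell by 0.45 ± 0.08 on the log2 scale (edgeR adjusted p = 0.00586), from 164 ± 7.63 to 121 ± 6.87 CPM. Dpp9 was at 25.2 ± 0.997 and 25.7 ± 1.31 CPM (95% interval of the log2 fold change -0.19 to 0.24).

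Guanylate-binding proteins are interferon-induced GTPases that expose bacterial lipopolysaccharide and DNA to Casp4 and Aim2. The list also held Irf1 and Gm12250, which are not guanylate-binding protein genes. Of its 6 genes, 3 fell, Gm12250 among them, and 0 rose, and 1 fell without vehicle replicate 3. Gbp7 held 34.6, 29.6 and 27.8 CPM in vehicle and 10.2, 15.8 and 13.1 CPM with PGE2 (log2 fold change -1.24 ± 0.17, edgeR adjusted p = 0.00172). Gbp2 was at -0.54 ± 0.12 (edgeR adjusted p = 0.0154), and its adjusted p was 0.0505 on leaving out PGE2 replicate 3 and 0.0623 or 0.0572 on leaving out vehicle replicate 2 or 3. Gm12250, which encodes the immunity-related GTPase Irgb10, was at -0.80 ± 0.19 (edgeR adjusted p = 0.0182), and its adjusted p was 0.0502 or 0.0711 on leaving out vehicle replicate 1 or 3.

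Outside the 10 genes, 3 of 8 tested NLR genes fell and 0 rose, and 5 fell with the block. Nlrx1, which encodes a mitochondrial NLR, held 60.1, 55.1 and 53.4 CPM in vehicle and 24.8, 22.8 and 21.5 CPM with PGE2 (log2 fold change -1.29 ± 0.10, edgeR adjusted p = 0.000245). Nod1, a sensor of peptidoglycan fragments, was at -1.04 ± 0.18, and Nlrp1a, the neighbour and paralog of Nlrp1b, at -1.04 ± 0.20, with 18.9, 15.2 and 12.1 CPM in vehicle and 8.08, 8.51 and 5.94 CPM with PGE2.

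**Figure D4:**
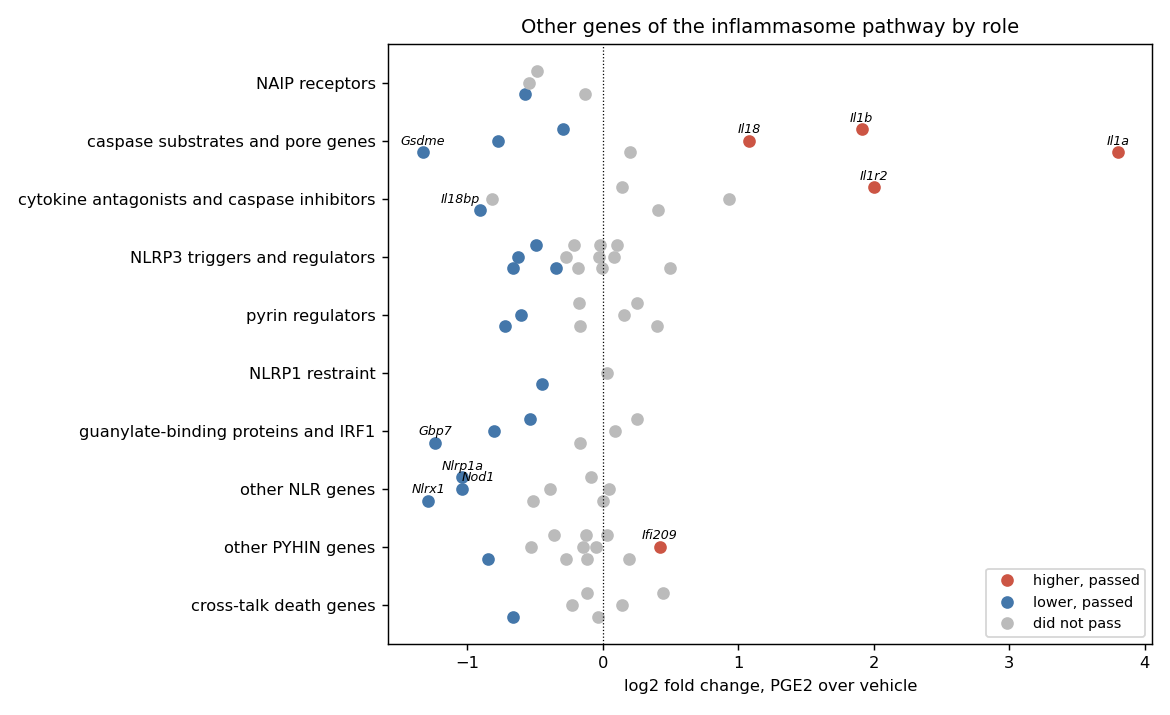
Log2 fold change, PGE2 over vehicle, of the 70 tested pathway genes, in rows by role; red marks genes called higher, blue lower and grey those that did not pass, and height within a row has no meaning. The 5 red points are Il1a, Il1b, Il18, Il1r2 and Ifi209, and most called genes of the other roles are blue.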

How the data were processed

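The 6 libraries were taken to groups and replicate numbers by their titles. The submitters' processing notes name StringTie 2.1.3b, RSEM, STAR, Bowtie2 and DESeq2, and the build mm10. The tool behind each value and the use of strand in counting are not stated in any source used here. The deposited series table holds estimated counts in whole numbers. Although named normalized, they have unequal library totals and were used unnormalised. TPM values are the authors', per the file headers, as is the coverage signal, which entered no result. The table's 18 columns of 6 other libraries were not used. Gene spans are those of the deposited files and equal RefSeq GRCm38.p6 for the 10 genes, with Casp4 starting elsewhere.

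Genes with at least 10 counts in 3 libraries were tested, 15947 of 45777, with edgeR 4.0.16 (quasi-likelihood, TMM, two-sided, Benjamini-Hochberg, R 4.3.3); the test was first run on simulated counts. SEs and 95% intervals come from that fit. The common biological coefficient of variation was 22.4%. The alternatives were 16: the replicate number as a block, omission of each library, size factors and the Wald test of DESeq2 1.42.0, library totals alone, hemoglobin genes left out, no filter, 50 counts, limma 3.58.1 on log2(TPM + 1) and log2(TPM + 0.1) where 3 libraries reached a TPM of 1, and a minimum log2 fold change of 1. Same-numbered libraries deviated together (r = 0.47, 0.37 and 0.37, and at most -0.01 for other pairs). Deviations were taken from each group's mean, so negative values for other pairs follow in part from positive same-numbered ones. The main test took no account of pairing. Only the replicate block and the same-numbered differences treated the numbers as pairs, and no label explains the numbers. The 10 genes and the lists were chosen with earlier results of these data known. All 10 genes are named, along with the most abundant marker of each list of other cells. From each pathway list come the 3 genes of smallest adjusted p, and at most 2 more called with the opposite sign. The values of 1 gene so chosen are not reported here. Protein sequences were not used here.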

Additional observations from a re-analysis of the deposited data

How the results depend on the processing

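Over the 16 alternatives, Mefv and Aim2 kept direction and call, with log2 fold changes of 0.92 to 1.13 and -1.09 to -0.89, and Nek7 did so except under the minimum log2 fold change of 1. With libraries scaled by their totals the tested genes shifted up by 0.09 and higher genes made up 55.5% of calls instead of 41.5%; on log2(TPM + 1) they shifted down by 0.11 and made up 30%. Genes called higher over the whole table numbered 1618, and 2648 with the replicate block, 967 and 953 on TPM with a pseudocount of 1 and 0.1, and 404 (with 602 lower instead of 2278) under the minimum fold change. Among the 10 genes, 1 was higher instead of 2 with no filter, on TPM with either pseudocount and under the minimum fold change, where 2 were lower instead of 4. Among pathway genes the block called 10 higher instead of 5, and the minimum fold change 5 lower instead of 20. Leaving out 1 library gave 999 to 1553 genes higher and 1642 to 2266 lower over the table, 1 to 2 higher and 2 to 4 lower of the 10 genes, and 4 to 6 higher and 17 to 20 lower of the pathway genes. The 2 lower genes were left without PGE2 replicate 3, vehicle replicate 2 or vehicle replicate 3, and 999 without vehicle replicate 2. Signs turned for genes near 0: Nlrc4 (-0.14 to 0.17 with 1 library left out, -0.09 of these without vehicle replicate 3, -0.11 and -0.13 on TPM with a pseudocount of 1 and 0.1), Casp4 (-0.23 to 0.074 with 1 library left out, 0.010 with library totals) and Dpp9 (-0.0083 to 0.061 with 1 left out, -0.19 and -0.20 on TPM). The cause of these moves was not tested, except that the minimum fold change makes calls stricter by construction. With the block, the pairing changed no call among the 10 genes but that of Nlrp3. Nlrp1b had 61 to 174 counts a library, the fewest of the 10 genes, which limits the precision of its values.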

Other observations

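The remaining AIM2-like receptor genes lie with Aim2 on chromosome 1 and are close paralogs that can share reads. Of 11 tested, 1 rose, 1 fell and 9 did not pass (18.2% called, beside 24.4% of all tested genes). With the replicate block 1 rose and 3 fell, where 35.5% of all tested genes were called. Ifi204 held 92.8, 99.8 and 82.7 CPM in vehicle and 59.3, 56.7 and 37.1 CPM with PGE2, a log2 fold change of -0.85 ± 0.17 (edgeR adjusted p = 0.00955). Ifi209 went up, from 93.2, 74.9 and 94.3 to 109, 110 and 132 CPM (0.42 ± 0.12, edgeR adjusted p = 0.0379). Its adjusted p became 0.0639 or 0.108 on leaving out PGE2 replicate 2 or 3, and 0.0584 (vehicle replicate 1), 0.122 (replicate 2) or 0.0561 (replicate 3) on leaving out a vehicle library. The adjusted p of Ifi209 was 0.0562 with no filter on low counts. From limma it was 0.218 on log2(TPM + 1) and 0.224 on log2(TPM + 0.1). Ifi203 was at -0.36 ± 0.13 and did not pass (edgeR adjusted p = 0.0719). It passed without PGE2 replicate 3 (0.0361), with the block (0.00972) and with DESeq2 (0.0371).

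Of 6 tested genes where the inflammasome meets other death pathways, 1 fell and 0 rose (16.7% called, beside 24.4% of all tested genes). With the block 2 fell and 1 rose, where 35.5% of all tested genes were called. Zbp1, which encodes a sensor of Z-form nucleic acids, went from 13.2 ± 1.86 to 8.33 ± 1.19 CPM (log2 fold change -0.66 ± 0.16, edgeR adjusted p = 0.0198). Its adjusted p became 0.0627 on leaving out PGE2 replicate 3 and 0.0524 or 0.0725 on leaving out vehicle replicate 2 or 3. Ripk3, a kinase gene of necroptosis, was at 0.44 ± 0.15 (edgeR adjusted p = 0.0682; 0.0398 without vehicle replicate 1, and 0.0206 with the block), and Ripk1 at -0.23 ± 0.10 (0.137, and 0.0339 with the block).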
